A study of Mus musculus with 8 samples.

Results

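Matricellular proteins are secreted into the extracellular matrix and signal to the cells around them rather than bearing load. Most bind integrins, proteoglycans or growth factors such as TGF-β and BMPs, and in bone they are known for setting how osteoblast progenitors attach, divide and mineralize. The 10 genes described here are taken by name: the CCN family genes Cyr61 (Ccn1), Ctgf (Ccn2), Nov (Ccn3), Wisp1 (Ccn4) and Wisp2 (Ccn5), the thrombospondin genes Thbs1 and Thbs2, the tenascin gene Tnc, the periostin gene Postn and the osteonectin gene Sparc. They are 10 of 51822 genes with a value, and all 10 were among the 12514 genes that reached an RPKM (reads divided by the length of the gene in kilobases and by the mapped reads of the library) of 1 in at least 2 libraries and were tested.

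RNA was sequenced from mouse osteoblast progenitors kept in osteogenic medium with ascorbic acid, dexamethasone and β-glycerophosphate. The 4 groups of 2 libraries were control (the vehicle DMSO) on day 7, LAMZ at 1 µM on day 7, control on day 14 and LAMZ on day 14. LAMZ (locamidazole) is an aminoindazole derivative. The study chose it in a sequential screen for compounds that promote the differentiation of muscle cells and osteoblasts and suppress that of osteoclasts. The sample labels name the cells as MC3T3-E1, an established osteoblastic line, whereas the study's methods and the series' design text name cultured calvarial cells, which are a mixed primary culture from the skull of newborn mice. Nothing says whether the libraries of a group came from separate cultures, so every error below is the spread between libraries and may be technical.

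The libraries held 3463481 to 5864511 mapped reads, as recovered from the RPKM values. Marker genes of the osteoblast lineage (Runx2, Sp7, Alpl, Col1a1, Bglap, Ibsp and Dmp1) were present in every library, with a summed RPKM of 4497 to 5696 in the control and 6639 to 6844 in the LAMZ libraries on day 7, and of 6784 to 7201 and 10078 to 11399 on day 14. Most of each sum was Col1a1, at 4354 and 5451 in the controls and 6252 and 6050 with LAMZ on day 7. By the test described below, 5 of the 7 were higher with LAMZ on each day, where 4.35% and 6.96% of all genes tested were. Col1a1 and Bglap were not called on day 7, nor Runx2 and Bglap on day 14. Macrophage markers were present as well, which a clonal osteoblastic line should lack: the 10 markers summed to an RPKM of 451 to 583 in the controls on day 7 and 1077 to 1129 on day 14, against 6.97 to 8.98 in the LAMZ libraries. Of these, C1qa, C1qb, C1qc and Tyrobp were at 0 in all LAMZ libraries, and 9 of the 10 on day 7 and 10 of 10 on day 14 were lower with LAMZ, where 8.49% and 16.0% of all genes tested were. The 5 chondrocyte markers summed to 174 to 247 and 152 to 164 in the controls of day 7 and day 14, against 432 to 450 and 433 to 495 with LAMZ, and the 3 tendon markers to 140 to 202 and 152 to 169 against 106 to 118 and 52.2 to 76.7. Tnmd made up most of the tendon sums, and among the tendon markers only Tnmd, on day 14, passed the test described below. The 4 adipocyte markers reached 57.2 in control replicate 2 of day 14 and at most 10.0 in any other library. Endothelial markers (5) stayed at or below 2.82 and skeletal muscle markers (4) at or below 0.673. In such bulk libraries fewer cells of a type and less RNA per cell cannot be told apart, and what part these shifts have in the differences below was not tested.

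For 5 of the 10 genes (Cyr61, Thbs2, Tnc, Postn and Sparc) a RefSeq promoter window on GRCm38.p6 was matched. The 250 bases before the transcript start are shown because the genes differ in their response: Tnc and, on day 14, Postn were higher with LAMZ, whereas Cyr61, Thbs2 and Sparc did not pass the test. Capitals mark the motifs that were searched on both strands, namely the TEAD motif GGAATG, which reads CATTCC on the other strand, and the SMAD motif CAGACA, which reads TGTCTG on the other strand. No marked motifs overlap.
Cyr61, chr3:145649986-145650235, minus strand: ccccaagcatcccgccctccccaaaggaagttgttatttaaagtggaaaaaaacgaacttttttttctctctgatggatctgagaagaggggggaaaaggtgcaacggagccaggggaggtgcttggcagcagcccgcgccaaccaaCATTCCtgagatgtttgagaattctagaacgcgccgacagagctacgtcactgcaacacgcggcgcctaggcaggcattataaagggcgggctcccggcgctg
Thbs2, chr17:14694263-14694512, minus strand: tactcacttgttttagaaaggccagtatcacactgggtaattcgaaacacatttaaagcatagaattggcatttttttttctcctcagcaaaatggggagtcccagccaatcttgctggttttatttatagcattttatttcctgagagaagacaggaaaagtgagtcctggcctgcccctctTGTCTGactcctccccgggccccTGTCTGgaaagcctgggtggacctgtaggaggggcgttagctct
Tnc, chr4:64046937-64047186, minus strand: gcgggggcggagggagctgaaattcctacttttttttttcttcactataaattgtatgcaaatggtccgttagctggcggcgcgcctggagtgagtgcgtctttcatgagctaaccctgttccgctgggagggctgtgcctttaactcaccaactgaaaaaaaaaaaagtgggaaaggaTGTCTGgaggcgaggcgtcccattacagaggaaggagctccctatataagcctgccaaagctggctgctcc
Postn, chr3:54360857-54361106, plus strand: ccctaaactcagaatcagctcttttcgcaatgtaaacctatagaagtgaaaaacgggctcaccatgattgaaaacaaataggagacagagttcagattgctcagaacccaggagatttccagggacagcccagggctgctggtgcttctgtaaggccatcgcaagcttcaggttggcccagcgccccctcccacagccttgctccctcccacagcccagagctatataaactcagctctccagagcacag
Sparc, chr11:55420081-55420330, minus strand: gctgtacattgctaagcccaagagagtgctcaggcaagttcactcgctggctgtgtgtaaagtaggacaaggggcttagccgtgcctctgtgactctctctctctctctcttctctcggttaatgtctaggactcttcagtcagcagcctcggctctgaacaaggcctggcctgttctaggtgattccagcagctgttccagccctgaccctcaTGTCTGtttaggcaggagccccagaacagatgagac

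The TEAD motif, the site bound by the partners of the mechanosensitive coactivators YAP and TAZ, occurred in the window of Cyr61, at position -103 from the start, and in no other of the 5. It occurred in 14.7% of the 32851 windows of the same 300 bases (250 before and 50 from the start on). The SMAD motif, bound by the transducers of TGF-β, occurred in Thbs2 at positions -67 and -44, in Tnc at -71 and in Sparc at -36, and again after the start in Tnc and Sparc, against 21% of all windows. Matches to the AP-1 motif (TGAGTCA or TGACTCA; 5.2% of all windows), the TCF/LEF motif (CTTTGAT; 3.73%) and the CArG box of SRF (1.63%) occurred in none of the 5. Tnc and Postn each have another window, and those of Tnc overlap. A match describes these letters and is no evidence of binding.

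LAMZ moved the matricellular genes in both directions. Nov and Wisp2 were lower on both days, Tnc and Wisp1 were higher on both days, and Ctgf and Postn were higher on day 14, whereas Cyr61 and Sparc did not pass the test on either day. On day 7, 4 of the 10 genes were called by limma on log2(RPKM + 1) at a Benjamini-Hochberg adjusted p under 0.05 over all genes tested (2 higher, 2 lower), where 12.8% of all genes tested were called (4.35% higher and 8.49% lower). On day 14, 7 of the 10 were called (4 higher, 3 lower), against 23.0% of all genes (6.96% higher and 16.0% lower). Fold changes by limma are on the log2(RPKM + 1) scale throughout, which understates the change of genes with low values. The median difference over the 10 genes was 0.32 on day 7 and 0.15 on day 14 on that scale, beside -0.08 and -0.15 over all genes tested.

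The RPKM values carry no scaling between libraries, and other scalings moved the zero point. After each library was rescaled to one sum over all rows, the median over all genes was -0.31 on day 7 and -0.43 on day 14, and 8.69% and 8.16% of the calls were higher. With each library centred on its median, the medians were 0.03 and 0.04, and 53.5% and 56.3% of the calls were higher, against 33.9% and 30.3% with the values as deposited. The row of the 7SL RNA gene Rn7s1 alone held 18.1% to 33.7% of the summed RPKM of a library. Under all 4 scalings tried, Nov and Wisp2 stayed lower and Tnc higher on both days, and Ctgf and Postn stayed higher on day 14, each at an adjusted p under 0.05.

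**Figure D1:**
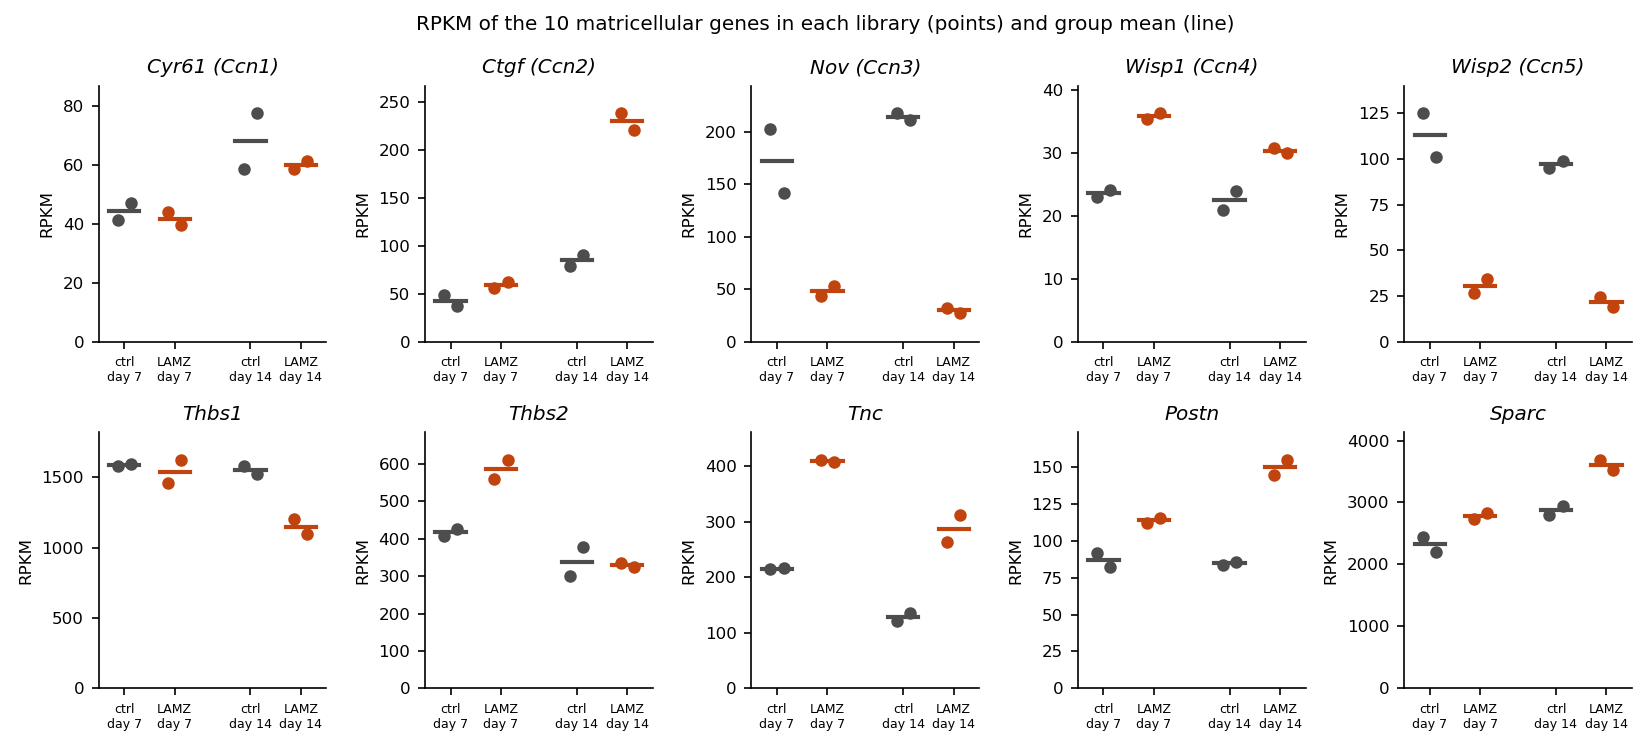
RPKM (linear axis from 0) of the 10 matricellular genes in each of the 8 libraries; points are libraries, lines the mean of the 2 libraries of a group, grey control and orange LAMZ. The LAMZ points of Nov and Wisp2 lie below and those of Tnc above all control points, and the day 14 LAMZ points of Ctgf, at 238 and 221, lie above those of every other group.

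The CCN proteins share an insulin-like growth factor binding domain, a von Willebrand factor type C repeat and a thrombospondin type 1 repeat, and all but Wisp2 carry a C-terminal cystine knot. In the GENCODE annotation of GRCm38 the coding sequence of Wisp2 was the shortest of the 5, at 251 codons without the stop, against 348 for Ctgf, 354 for Nov, 367 for Wisp1 and 379 for Cyr61. Each of the 5 had 5 exons in its longest coding transcript.

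Nov, which encodes CCN3, a factor known to inhibit osteoblast differentiation and BMP signalling, lies at chr15:54745702-54754039 on the plus strand. Its RPKM was 203 and 141 in the control and 43.6 and 53.2 in the LAMZ libraries on day 7. On day 14 it was 217 and 211 in the controls and 32.3 and 27.6 with LAMZ. All 4 LAMZ libraries were below all 4 control libraries. Nov was 3.55-fold lower with LAMZ on day 7 and 7.16-fold lower on day 14, by the ratio of mean RPKM. The differences were -1.79 ± 0.19 (SE, n = 2 libraries a group; limma, adjusted p = 0.00104) and -2.80 ± 0.19 (adjusted p = 6.92e-05) on the log2(RPKM + 1) scale.

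Wisp2, which encodes CCN5, the short member known from growth-arrested fibroblasts and smooth muscle, lies at chr2:163820861-163833146 on the plus strand. The controls held an RPKM of 125 and 101 on day 7, and the LAMZ libraries 26.8 and 34.6. On day 14 the controls held 95.2 and 98.9 and the LAMZ libraries 24.3 and 19.3. As with Nov, LAMZ and control libraries did not overlap on either day, and the levels with LAMZ were 3.68-fold and 4.45-fold lower. The differences by limma were -1.85 ± 0.17 (adjusted p = 0.000658) and -2.11 ± 0.17 (adjusted p = 0.00017). The lowest level rested on 182 to 275 reads per library, by the recovered depth.

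Ctgf encodes connective tissue growth factor, a target of TGF-β and of YAP and TAZ that promotes matrix production, and lies at chr10:24595442-24598683 on the plus strand. On day 7 its RPKM was 48.8 and 36.8 in the controls and 56.2 and 62.2 with LAMZ. By day 14 it was 79.1 and 90.7 in the controls and 238 and 221 with LAMZ. The day 14 LAMZ libraries thus stood far above the other 6, at 2.70 times the mean of their controls. The difference was 1.43 ± 0.16 on day 14 (adjusted p = 0.000689) and 0.47 ± 0.16 on day 7 (adjusted p = 0.0909). The day 7 difference was 0.67 without control replicate 1 of day 7 and 0.27 without control replicate 2. It depended on the scaling as well. After rescaling to one sum it was 0.17 and not called (limma, adjusted p = 0.404). With libraries centred on the median it was 0.58 (adjusted p = 0.0263), and with quantile normalization 0.47 (adjusted p = 0.0474), and called in both. The gene overlaps Gm15270 on the other strand, and whether the counting used strand is not given in the sources used here.

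Wisp1 encodes CCN4, a Wnt-induced protein known to be expressed by osteoblast progenitors, and lies at chr15:66891320-66923201 on the plus strand. Its RPKM was 23.0 and 24.1 in the controls and 35.3 and 36.2 with LAMZ on day 7. On day 14 it was 20.9 and 24.0 in the controls and 30.7 and 30.0 with LAMZ. The groups did not overlap on either day, and the differences were 0.58 ± 0.11 (adjusted p = 0.0143) and 0.42 ± 0.11 (adjusted p = 0.0306). Both calls were weak. The day 7 call was lost without control replicate 1 of day 7 or either LAMZ library of day 7 (adjusted p = 0.0584 to 0.0878), and after rescaling to one sum (0.29, adjusted p = 0.123). The day 14 call was lost without control replicate 1 of day 14 or any of the 4 LAMZ libraries (adjusted p = 0.0575 to 0.129), and after rescaling to one sum the difference on day 14 was 0.07 and not called.

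Cyr61, at chr3:145646976-145649981 on the minus strand, encodes CCN1, an integrin ligand that is a textbook target of YAP and TAZ, as Ctgf is. Its RPKM was 41.5 and 47.2 in the controls and 44.0 and 39.6 with LAMZ on day 7, and 58.7 and 77.6 against 58.9 and 61.3 on day 14. The LAMZ libraries overlapped the controls on both days. The differences were -0.08 (95% interval -0.44 to 0.27; adjusted p = 0.779) on day 7 and -0.17 (-0.52 to 0.19; adjusted p = 0.478) on day 14, with a sign that turned when the libraries were centred on their medians. After rescaling to one sum the day 14 difference was -0.52 and called lower (adjusted p = 0.038). With the values as deposited, the upper bounds lie below the day 14 difference of Ctgf, the lower bound of whose interval was 1.06.

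The make-up of CCN transcripts changed accordingly. Nov made up 46.0% and 40.3% of the summed RPKM of the 5 CCN genes in the control libraries of day 7, and 46.1% and 42.1% in those of day 14. With LAMZ its share was 21.2% and 23.6% on day 7 and 8.42% and 7.68% on day 14. Ctgf made up 11.1% and 10.5% in the controls and 27.3% and 27.5% with LAMZ on day 7, and 16.8% and 18.1% against 61.9% and 61.5% on day 14. The ratio of Ctgf to Nov within a library was 0.24 and 0.26 in the controls and 1.29 and 1.17 with LAMZ on day 7, and 0.36 and 0.43 against 7.35 and 8.02 on day 14. This ratio is not changed by multiplying a library by a constant. Summed over the 5 genes, the RPKM was 441 and 350 in the controls and 206 and 226 with LAMZ on day 7, and 471 and 502 against 384 and 359 on day 14.

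**Figure D2:**
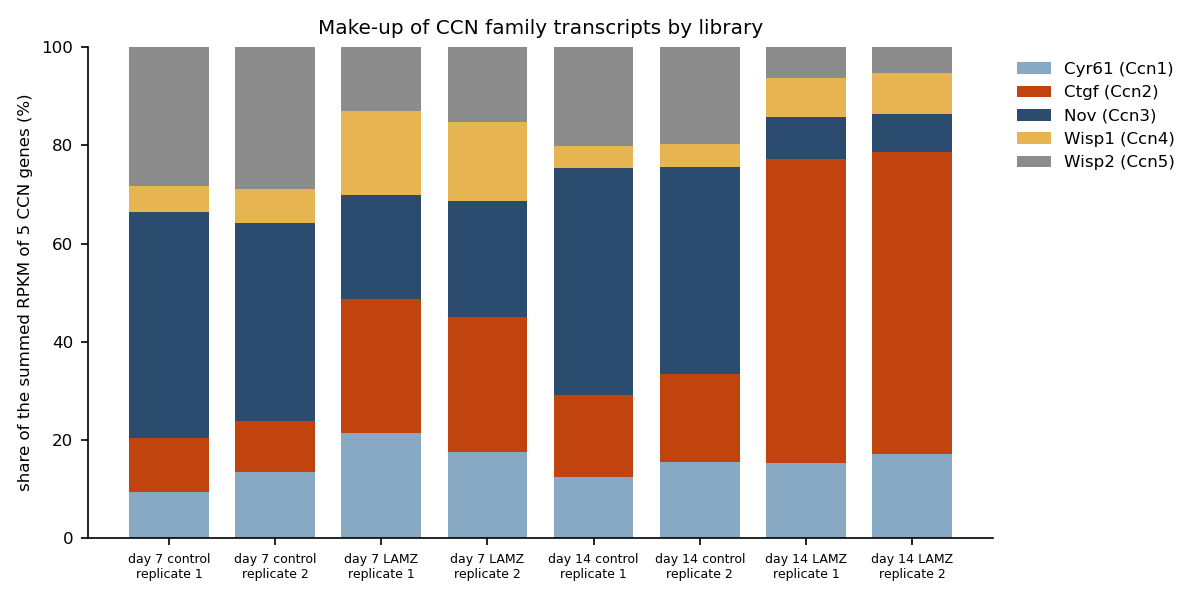
Share (percent, stacked to 100) of each CCN gene in the summed RPKM of the 5 CCN genes, 1 bar for each library. Nov takes 40.3% to 46.1% of each control bar and Ctgf 61.5% to 61.9% of each day 14 LAMZ bar.

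Thbs1 and Thbs2 encode the trimeric thrombospondins, which bind CD36, CD47 and integrins and restrain angiogenesis, and Thbs1 is known for activating latent TGF-β. Thbs1, at chr2:118111876-118127133 on the plus strand, was among the most abundant transcripts of these cells and ranked between 6 and 13 of 21418 protein-coding genes in every library. Its RPKM was 1583 and 1594 in the controls and 1458 and 1625 with LAMZ on day 7, where the groups overlapped (-0.05, 95% interval -0.34 to 0.25; adjusted p = 0.86). On day 14 it was 1583 and 1523 in the controls and 1202 and 1097 with LAMZ, and the groups did not overlap. The day 14 difference was -0.44 ± 0.13 (adjusted p = 0.0452). That call was close to the threshold: it held in 8 of 20 alternatives, and was lost without any 1 of the 4 libraries of day 14 or of the 2 LAMZ libraries of day 7 (adjusted p = 0.0704 to 0.239). The gene overlaps Gm29233 on the other strand.

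Thbs2, at chr17:14665500-14694235 on the minus strand, had an RPKM of 408 and 427 in the controls and 561 and 611 with LAMZ on day 7. On day 14 it was 300 and 377 in the controls and 336 and 325 with LAMZ. The groups stood apart on day 7 and overlapped on day 14. Neither difference was called, at 0.49 ± 0.14 (adjusted p = 0.0586) and -0.03 ± 0.14 (95% interval -0.35 to 0.30; adjusted p = 0.912). Without either control library of day 14 the day 7 difference passed the threshold (adjusted p = 0.0453 to 0.0457). The ratio of Thbs1 to Thbs2 within a library was 3.74 to 3.88 in the controls and 2.60 to 2.66 with LAMZ on day 7, and 4.04 to 5.27 against 3.38 to 3.58 on day 14.

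Tnc encodes tenascin-C, a hexameric anti-adhesive protein laid down around condensing mesenchyme and along the periosteum, and lies at chr4:63959785-64047015 on the minus strand. Its RPKM on day 7 was 215 and 216 in the controls and 411 and 408 with LAMZ. On day 14 it was 122 and 135 in the controls and 264 and 312 with LAMZ. Every LAMZ library was above every control library, also across days. Tnc was 1.90-fold higher on day 7 and 2.24-fold higher on day 14, with differences of 0.92 ± 0.13 (adjusted p = 0.00338) and 1.15 ± 0.13 (adjusted p = 0.000687). The gene overlaps 8030451A03Rik on the other strand.

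Postn encodes periostin, which is named for the periosteum, binds integrins and tenascin-C and assists collagen cross-linking. It lies at chr3:54361109-54391037 on the plus strand. In the controls its RPKM was 91.8 and 82.4 on day 7 and 83.7 and 85.9 on day 14. With LAMZ it was 112 and 115 on day 7 and 145 and 155 on day 14. All LAMZ libraries exceeded all controls, and the difference was 0.39 ± 0.11 on day 7 (adjusted p = 0.0603) and 0.81 ± 0.11 on day 14 (adjusted p = 0.00194). After rescaling to one sum, the day 14 difference was 0.45 and remained called.

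Sparc encodes osteonectin, the collagen- and calcium-binding protein that is among the main non-collagenous proteins of bone, and lies at chr11:55394500-55423183 on the minus strand. It ranked 2 or 3 of 21418 protein-coding genes in every library. Its RPKM was 2449 and 2198 in the controls and 2739 and 2827 with LAMZ on day 7, and 2805 and 2947 against 3687 and 3523 on day 14. Although LAMZ and control libraries did not overlap within a day, the differences of 0.26 ± 0.13 (adjusted p = 0.247) and 0.33 ± 0.13 (adjusted p = 0.117) were not called, and after rescaling to one sum they were -0.04 on both days. Centred on the median, the day 14 difference was 0.52 and called higher (adjusted p = 0.0246). Relative to Col1a1, the main collagen gene of bone, its level was 0.40 to 0.56 in the controls and 0.44 to 0.47 with LAMZ on day 7, and 0.42 to 0.47 against 0.35 to 0.41 on day 14.

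**Figure D3:**
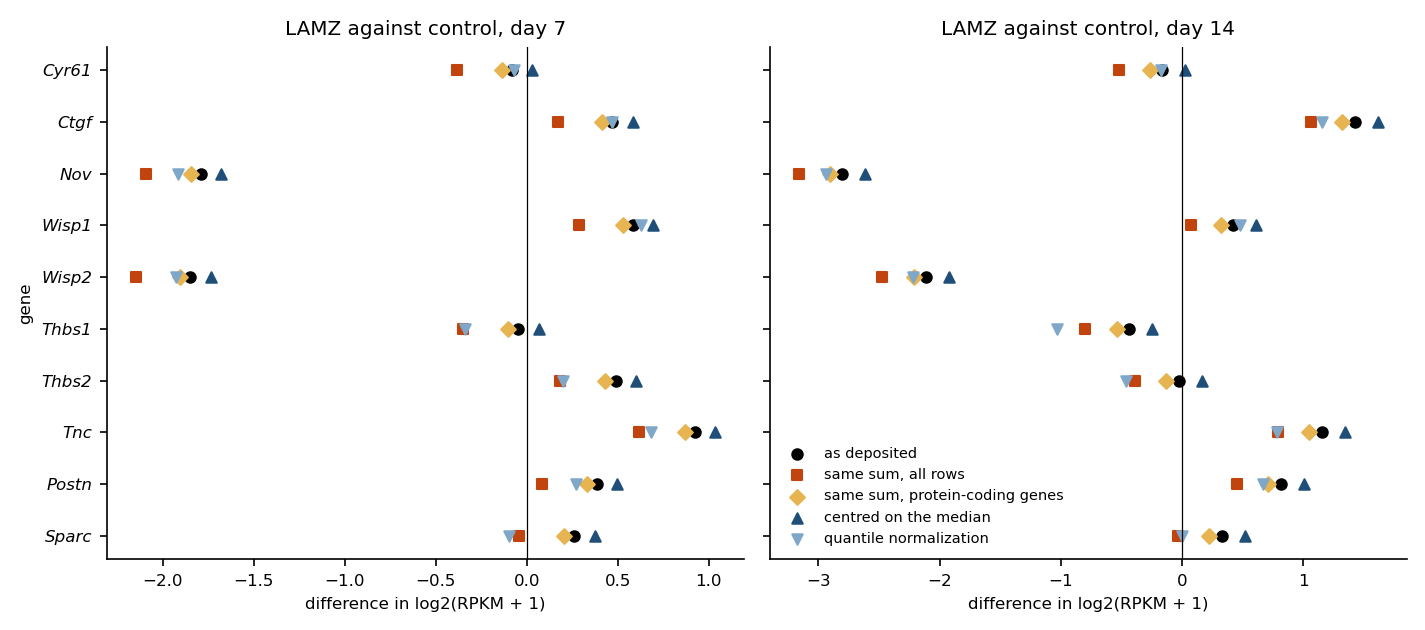
Difference of LAMZ from control in log2(RPKM + 1) for each gene (LAMZ minus control), with the values as deposited and under 4 other scalings between libraries, on day 7 (left) and day 14 (right). Nov, Wisp2 and Tnc keep their side of 0 under each scaling, while Sparc lies at -0.04 on both days after rescaling to one sum.

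Whether the response to LAMZ changed between the days was tested as the difference of both differences. None of the 10 genes passed (limma, adjusted p under 0.05), where 0.623% of all genes tested did (0.312% higher and 0.312% lower on day 14 than on day 7). At an unadjusted p under 0.05, 4 of the 10 did, as did many other genes. Ranked by this p among the 12514 genes tested, Ctgf stood at 313, Nov at 499, Postn at 1416 and Thbs2 at 1543. The response was further up on day 14 for Ctgf (0.95 ± 0.22, unadjusted p = 0.0026, adjusted p = 0.104) and Postn (0.43 ± 0.16, unadjusted p = 0.0271, adjusted p = 0.239). It was further down for Nov (-1.01 ± 0.27, unadjusted p = 0.00537, adjusted p = 0.135) and Thbs2 (-0.52 ± 0.20, unadjusted p = 0.0318, adjusted p = 0.258). The day 7 and day 14 responses of these 10 genes are therefore not shown to differ.

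Over time, 2 of the 10 genes changed from day 7 to day 14 in the controls (1 higher, 1 lower), where 4.86% of all genes tested were called (2.46% higher and 2.40% lower). With LAMZ 3 did (1 higher, 2 lower), where 14.4% were called (5.10% higher and 9.26% lower). Ctgf rose in both, by 0.98 ± 0.16 in the controls (1.98-fold; adjusted p = 0.0165) and by 1.94 ± 0.16 with LAMZ (3.87-fold; adjusted p = 0.000602). Without either day 14 control library the rise in the controls was not called (adjusted p = 0.08 to 0.0833). Tnc was lower on day 14 in both, by -0.74 ± 0.13 in the controls (adjusted p = 0.0208) and -0.51 ± 0.13 with LAMZ (adjusted p = 0.033). Its control call was lost without any 1 of the 4 control libraries or of the 2 day 7 LAMZ libraries (adjusted p = 0.0516 to 0.127), and its LAMZ call without any 1 of the 4 LAMZ libraries (adjusted p = 0.0702 to 0.171). Thbs2 was lower on day 14 with LAMZ (-0.82 ± 0.14, 1.77-fold; adjusted p = 0.00871), a call lost without replicate 2 of either LAMZ group (adjusted p = 0.07 to 0.0787), and was -0.31 ± 0.14 in the controls (adjusted p = 0.249). Nov with LAMZ was -0.67 ± 0.19 and just missed the threshold (adjusted p = 0.0512), which it passed without either day 7 control library (adjusted p = 0.0217 to 0.0219). The same 2 omissions brought in Postn (0.39 ± 0.11, adjusted p = 0.0539; 0.0448 to 0.0451 without 1 of them). Cyr61 with LAMZ (0.51 ± 0.15, adjusted p = 0.0619) passed without either day 14 control library (adjusted p = 0.0391 to 0.0393). In the controls 8 of the 10 macrophage markers were higher on day 14 than on day 7, and their part in these courses was not tested. The day 14 and day 7 comparisons share libraries with those of LAMZ against control.

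**Figure D4:**
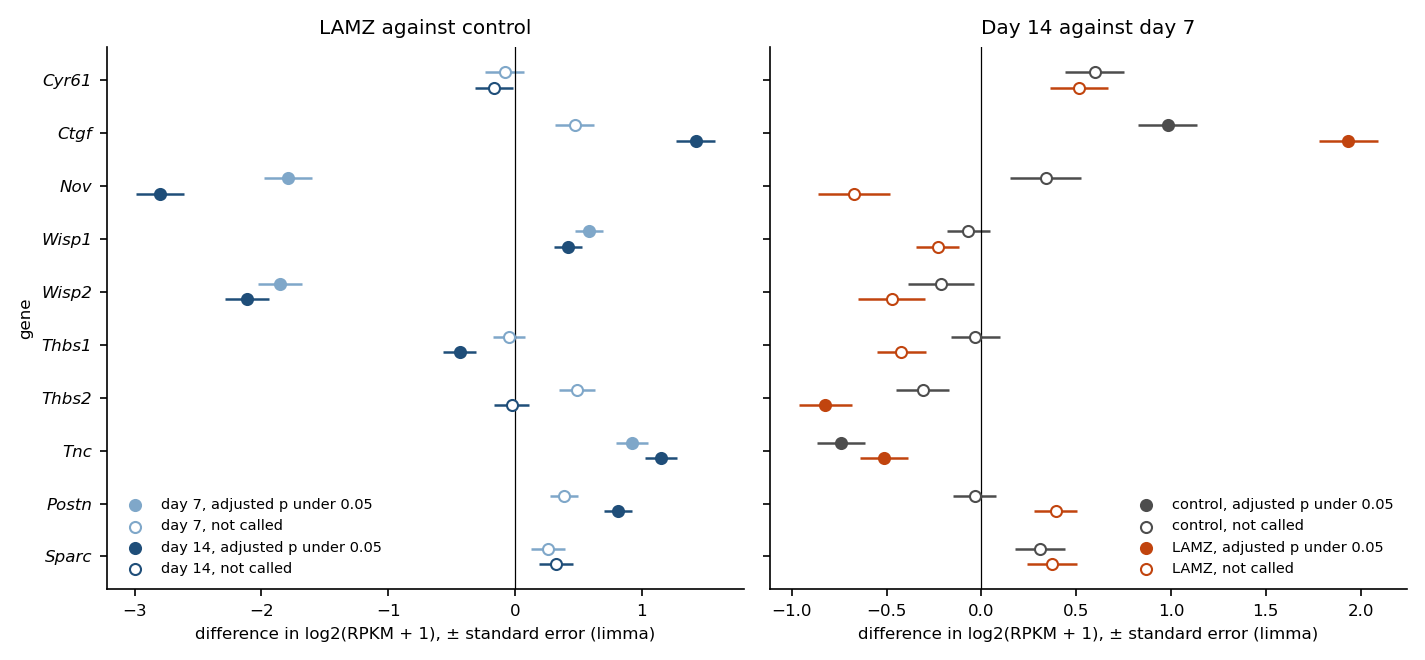
Differences in log2(RPKM + 1) with standard error (limma, 8 libraries in one fit) for LAMZ minus control on each day (left) and day 14 minus day 7 in each treatment (right); filled points have an adjusted p under 0.05, open points do not. With LAMZ, Nov and Wisp2 lie between -2.80 and -1.79 on the left, and Ctgf has the largest rise over time, 1.94, on the right.

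Set side by side per length, the order of levels differed mainly among the CCN genes. In the day 7 controls the mean RPKM ran from Sparc (2323) and Thbs1 (1589) through Thbs2 (417), Tnc (215), Nov (172), Wisp2 (113) and Postn (87.1) to Cyr61 (44.4), Ctgf (42.8) and Wisp1 (23.5). Only Cyr61 and Ctgf overlapped there among neighbours. With LAMZ on day 14 the order was Sparc (3605), Thbs1 (1149), Thbs2 (330), Tnc (288), Ctgf (229), Postn (150), Cyr61 (60.1), Wisp1 (30.3), Nov (29.9) and Wisp2 (21.8), and only Wisp1 and Nov overlapped among neighbours. Nov thus went from the highest of the CCN genes in the controls to the level of Wisp1. In the LAMZ libraries of day 7, Nov and Cyr61 overlapped, and in the controls of day 14, Ctgf and Postn. The ratio of Tnc to Postn within a library was 2.34 to 2.62 in the controls and 3.53 to 3.66 with LAMZ on day 7, and 1.46 to 1.57 against 1.82 to 2.01 on day 14.

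Other matricellular genes also moved both ways. Of 19 listed, 15 were tested, of which 5 were higher and 4 lower with LAMZ on day 7 and 6 higher and 7 lower on day 14, with medians of -0.02 and -0.12. Among all genes tested, 4.35% were higher and 8.49% lower on day 7, and 6.96% higher and 16.0% lower on day 14. The largest differences among those called were those of Spp1, Tnn and Fbln2. Spp1, which encodes osteopontin, had an RPKM of 84.0 and 204 in the controls and 1380 and 1114 with LAMZ on day 7, and 266 and 361 against 2476 and 2472 on day 14 (3.23, adjusted p = 0.00139; 2.99, adjusted p = 0.00108). Tnn, which encodes tenascin-W of the periosteum, rose from 32.4 and 33.9 in the controls to 141 and 135 with LAMZ on day 7 and stood at 15.9 and 23.4 against 125 and 122 on day 14 (2.03, adjusted p = 0.000375; 2.61, adjusted p = 5.76e-05). Fbln2, which encodes the basement membrane and elastic fibre protein fibulin-2, was lower, at 107 and 90.5 against 28.2 and 31.1 on day 7 and 69.2 and 68.8 against 18.0 and 15.8 on day 14 (-1.70, adjusted p = 0.000254; -1.97, adjusted p = 6.4e-05).

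Among 16 receptors and matrix partners, all tested, 2 were higher and 3 lower on day 7 and 3 higher and 4 lower on day 14, with medians of 0.03 and -0.07. The shares of all genes tested were 4.35% higher and 8.49% lower on day 7, and 6.96% and 16.0% on day 14. The largest differences were those of Stab1 and Cd36, both of which macrophages are also known to express. Stab1, a scavenger receptor that takes up SPARC, had an RPKM of 12.8 and 22.0 in the controls and 0.342 and 0.448 with LAMZ on day 7, and 27.9 and 31.6 against 0.400 and 0.358 on day 14 (-3.68, adjusted p = 8.97e-05; -4.48, adjusted p = 1.61e-05). Cd36, the thrombospondin receptor, was at 5.84 and 7.08 in the controls of day 7 and at 7.62 and 8.93 in those of day 14, and listed at 0 in all 4 LAMZ libraries. These fell together with the macrophage markers, which went from at least 451 to at most 8.98 in summed RPKM, and whether the cells that carry them account for it was not tested. Itgb3, the β3 chain of the vitronectin receptor that binds periostin, osteopontin and CCN proteins, was higher, at 7.55 and 7.44 against 14.4 and 14.6 on day 7 and 6.85 and 7.68 against 15.4 and 17.1 on day 14 (0.87, adjusted p = 0.00291; 1.06, adjusted p = 0.000629).

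Since Ctgf and Cyr61 are both known YAP and TAZ targets, 20 other genes named as targets of these coactivators were read beside them, of which 19 were tested. On day 7, 2 were higher and 6 lower with LAMZ, and on day 14, 3 were higher and 7 lower, with medians of -0.26 and -0.18. The same test called 4.35% of all genes tested higher and 8.49% lower on day 7, and 6.96% and 16.0% on day 14. Igfbp3, which encodes a carrier of insulin-like growth factors, had an RPKM of 68.5 and 44.2 in the controls and 20.8 and 27.0 with LAMZ on day 7, and 26.6 and 24.5 against 3.83 and 3.47 on day 14 (-1.18, adjusted p = 0.0106; -2.51, adjusted p = 0.000177). Its day 7 call was lost without LAMZ replicate 1 of day 7 (adjusted p = 0.0891). Axl, a receptor tyrosine kinase, was at 30.9 and 25.4 against 10.6 and 10.8, and at 26.8 and 30.3 against 6.47 and 6.92 (-1.31, adjusted p = 0.000869; -1.94, adjusted p = 7.1e-05). Nuak2, a kinase of low level here, was at 2.37 and 2.06 against 0.359 and 0.539, and at 2.75 and 2.14 against 0.569 and 0.314 (-1.15, adjusted p = 0.00746, and 0.059 without LAMZ replicate 1 of day 7; -1.26, adjusted p = 0.00285). The rise of Ctgf on day 14 was thus accompanied by calls in both directions among the other listed targets. Of 8 genes of the coactivators and their TEAD partners, none was called on day 7 (limma; 2 were lower at an unadjusted p under 0.05), and Vgll3, a TEAD cofactor, was the 1 gene called lower on day 14 (17.9 and 20.0 against 11.4 and 8.69; -0.86, adjusted p = 0.0081), a call lost without control or LAMZ replicate 2 of day 14 (adjusted p = 0.0553 to 0.0581).

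TGF-β ligands, receptors and feedback targets (13, all tested, of which Tgfb2 is also among the YAP and TAZ targets) gave 3 higher and 3 lower on day 7 and 2 higher and 5 lower on day 14, with medians of -0.26 and 0.09. Beside these, 4.35% of all genes tested were higher and 8.49% lower on day 7, and 6.96% and 16.0% on day 14. Tgfb1, the main TGF-β ligand of bone matrix, had an RPKM of 2.14 and 2.44 in the controls and 6.29 and 7.33 with LAMZ on day 7, and 6.50 and 5.60 against 15.4 and 17.4 on day 14 (1.24, adjusted p = 0.0012; 1.30, adjusted p = 0.000501). Tgfbr3, the co-receptor betaglycan, was lower, at 7.94 and 7.50 against 2.44 and 3.55 and at 7.85 and 8.89 against 3.59 and 3.79 (-1.14, adjusted p = 0.00315; -0.997, adjusted p = 0.00314). Tgfb1 and Tgfbr3 thus moved in opposite directions, and these 2 do not stand for the list. Tgfbr2 (-0.85, limma adjusted p = 0.013) and the feedback target Smad7 (-0.77, adjusted p = 0.00564) were among the 5 lower on day 14, beside 2 higher. Tgfb3, Tgfbr1, Skil, Pmepa1 and Tgif1 were called on neither day.

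Of 10 Wnt feedback targets, read because Wisp1 and Wisp2 are named for Wnt induction, 6 were tested. On day 7, 2 were higher and none lower (limma, also at an unadjusted p under 0.05), and on day 14, 1 was higher and 3 lower, with medians of 0.20 and -0.49. All genes tested gave 4.35% higher and 8.49% lower on day 7, and 6.96% and 16.0% on day 14. Tcf7, a transcription factor of the pathway, was higher on both days, at 7.68 and 12.0 against 28.6 and 26.4 and at 8.02 and 9.69 against 15.0 and 16.2 (1.42, adjusted p = 0.00321; 0.76, adjusted p = 0.0256). On day 14 Nkd2, an inhibitor of Dishevelled, was at 3.20 and 3.90 against 1.28 and 1.65 (-0.88, adjusted p = 0.00693), and Dkk2, a secreted Wnt modulator, at 1.91 and 1.25 against 0.417 and 0.387 (-0.87, adjusted p = 0.0413). These day 14 calls were weak. That of Tcf7 was lost without any 1 of the 4 libraries of day 14 (adjusted p = 0.0586 to 0.127), that of Nkd2 without control replicate 2 or LAMZ replicate 1 of day 14 (adjusted p = 0.0501 to 0.0513), and that of Dkk2 without any 1 of the 4 LAMZ libraries or the 2 controls of day 14 (adjusted p = 0.0564 to 0.183).

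**Figure D5:**
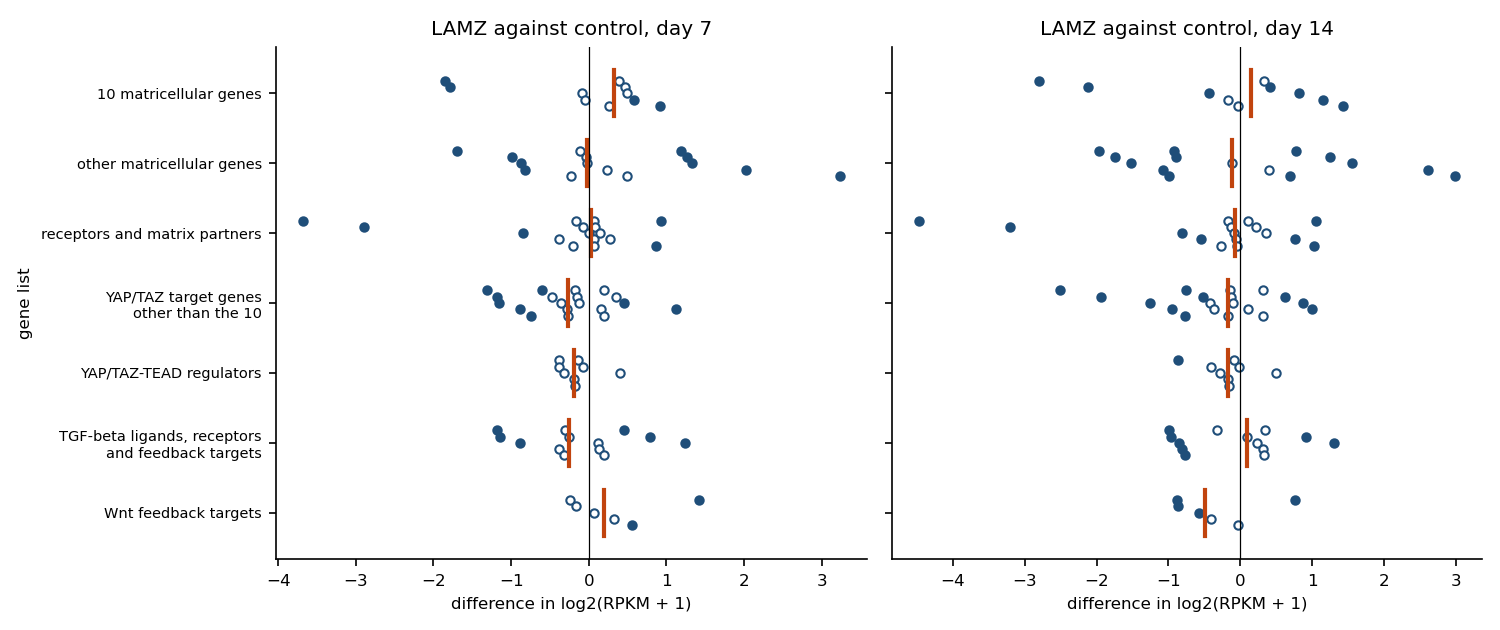
Difference of LAMZ from control in log2(RPKM + 1) (LAMZ minus control) for the genes tested of each list, on day 7 (left) and day 14 (right); each point is a gene, filled where the adjusted p was under 0.05, and the orange line is the median of the list. Each list holds genes on both sides of 0 on both days, and the medians lie between -0.49 and 0.32.

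The genes whose course over the 8 libraries lay nearest to each matricellular gene were found among 3079 tested genes with a mean RPKM of at least 10, by the root mean square distance of log2(RPKM + 1) values centred on each gene's mean. For Nov these were Cd248 (distance 0.12), Sned1 (0.20) and Ly6a (0.20), and for Wisp2 Akap12 (0.15), Adamts5 (0.16) and Fbln2 (0.18). Nearest to Ctgf were Ppp1r15a (0.18), Slc3a2 (0.20) and Slc7a5 (0.23). Wisp1 lay nearest to Itga11, Tmem45a and Mydgf (0.05 to 0.08), Thbs2 to Cthrc1, Mapk6 and Col12a1 (0.07 to 0.09), and Tnc to Slc27a3, Peg3 and Gm24407 (0.17 to 0.20). For Postn they were the ribosomal protein genes Rps19, Rpl6 and Rplp1 (0.05 to 0.07), for Sparc Ccdc80, Abhd12 and Tmem256 (0.06 to 0.07), for Thbs1 Atxn7l3b, Dennd5a and Pja2 (0.06), and for Cyr61 Npc2, Ctsd and Calcoco1 (0.13 to 0.15). The distances describe likeness over 8 libraries that share their depth and scaling.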

How the data were processed

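The 8 RNA libraries were sequenced on an Ion Proton. The authors used CLC Genomics Workbench and deposited an RPKM value for each gene symbol; the labels name the build mm10, and no scaling between libraries, program version or use of strand is given in the sources used here. Samples were grouped by the labels' day, treatment and replicate number. From each file of 51826 rows, 4 with repeated symbols were dropped.

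Genes that reached an RPKM of 1 in 2 or more libraries entered the test by limma 3.58.1 (R 4.3.3) on log2(RPKM + 1), as 4 groups in one fit with a mean-variance trend, after the script had been tested on simulated data. An exact permutation test of 2 against 2 libraries cannot give a p below 0.333, so none was used. Of the low values of single-exon genes (789 to 1329 per library), 94.4% to 96.2% came to whole reads within 0.03 with GENCODE M21 lengths, which gave the depth; counts of reads rest on those lengths.

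The 10 genes and the gene lists were chosen with earlier results of these data known. From each list the text names up to 3 genes with the largest absolute difference on day 7 or 14 among those called, and for each of the 10 genes the 3 nearest genes, except that 1 listed gene is not reported here; the lists of targets and markers come from general knowledge. Alternatives changed the pseudocount, the filter, the scaling, the block, the trend and the libraries. Promoter sequence is from RefSeq (GRCm38.p6).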

Additional observations from a re-analysis of the deposited data

How the results depend on the processing

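Of the matricellular genes called with the values as deposited, Nov, Wisp2 and Tnc on both days and Ctgf and Postn on day 14 were called in 20 of 20 alternatives in the same direction. The count of genes called on day 7 was 4 and became 7 with libraries centred on the median, where 12.8% of all genes were called. Leaving out 1 library gave 3 to 5 on day 7, 5 to 7 on day 14, 0 to 2 over time in the controls and 1 to 5 over time with LAMZ, and 0 for the difference between days (limma; 2 to 4 of the 10 genes at an unadjusted p under 0.05). The share of all genes called was then 4.21% to 11.1%, 12.1% to 24.7%, 0.551% to 3.62%, 3.90% to 15.1% and 0 to 0.168%, in the same order, against 12.8%, 23.0%, 4.86%, 14.4% and 0.623% with all libraries. Over time with LAMZ, the 3 calls became 5 with a pseudocount of 0.1 (14.7% of all genes), 6 with an RPKM of at least 5 (24.0%), 5 after rescaling to one sum over all rows (12.2%), 5 with median centring (14.6%), 7 with quantile normalization (13.3%) and 6 after rescaling to one sum over protein-coding genes (17.9%), an alternative added after seeing the data. Over time in the controls, the 2 calls became 0 without the filter (0.678% of all genes), with only the 4 libraries compared (0 of all genes), and with the block within each treatment (1.77%); 3 of the 10 genes had an unadjusted p under 0.05 in each (limma). Those fits test more genes or use fewer residual degrees of freedom.

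Same-numbered libraries did not deviate together (r between -0.03 and 0.06 over the 4 pairs of groups), and the main fit used no pairing. These r values cannot exclude that equal numbers mark a shared culture or preparation, since deviations within 2 libraries also hold sampling noise. With a replicate block across all groups, 4, 6 and 0 of the 10 genes were called for day 7, day 14 and the difference. Over time in controls and with LAMZ, 2 and 3 were. Of the 12514 genes tested, this block called 1376, 2700, 17, 432 and 1548 in that order. The main fit called 1607, 2878, 78, 608 and 1797. A block within each day or treatment gave 3, 5, 0 and 2 calls among the 10 genes, and 984, 2171, 221 and 1150 among all genes. It was not run for the difference.

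Differences that changed sign were never called in either setting. With median centring, Cyr61 was 0.0316 on day 7 and 0.0248 on day 14, Thbs1 was 0.0675 on day 7 and Thbs2 0.16 on day 14. After rescaling to one sum over all rows, Sparc was -0.0441 on day 7 and -0.0381 on day 14, and over time in the controls Postn was 0.22, Thbs1 0.22, Wisp1 0.18 and Wisp2 0.044. With quantile normalization, Sparc on day 7 was -0.10, and over time in the controls Postn was 0.0749 and Thbs1 0.14. Quantile normalization sets each value by its rank in the library. Sparc ranked 2 or 3 of 21418 protein-coding genes in every library, so its sign there cannot decide whether its level changed. Leaving out 1 library, the ranges were -0.17 to 0.0089 and -0.36 to 0.0332 for Cyr61 on day 7 and day 14 and -0.28 to 0.11 for its difference between days, -0.12 to 0.0323 for Thbs1 on day 7, -0.19 to 0.14 for Thbs2 on day 14 and -0.0143 to 0.14 for the difference of Sparc between days; over time in the controls they were -0.11 to 0.0403 for Postn and -0.16 to 0.0252 for Wisp1. The causes were not tested. With 2 libraries a group, differences as small as those of Sparc were not resolved.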

Other observations

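Thbs4 and Comp, the pentameric thrombospondins of tendon and cartilage, were looked at after their values were seen. In the controls both rose from day 7 to day 14: the RPKM of Thbs4 went from 2.98 and 3.07 to 12.3 and 10.3 (1.60, limma adjusted p = 0.00299) and that of Comp from 22.4 and 20.8 to 65.0 and 67.1 (1.57, adjusted p = 0.00553). With LAMZ their day 14 levels lay on opposite sides of the controls. Thbs4 was at 4.70 and 4.67 on day 7 and 3.65 and 2.93 on day 14, lower than in the controls on day 14 (-1.52, adjusted p = 0.000257). Comp was at 23.0 and 19.2 on day 7 and 137 and 184 on day 14, higher than in the controls on day 14 (1.25, adjusted p = 0.00144). Over time with LAMZ, Comp rose (2.86, limma adjusted p = 0.00029) and Thbs4 was not called (-0.41, adjusted p = 0.0803). The difference of the LAMZ effect between days was called for Thbs4 (-2.02, limma adjusted p = 0.0198) and not for Comp (1.29, adjusted p = 0.0579). It was called for 0.623% of all genes tested. The call of Thbs4 was lost without the filter on low values, where 0 of all genes were called. Leaving out control replicate 2 of day 14 also lost it. Among all genes tested, 4.35% were higher with LAMZ and 8.49% lower on day 7, and 6.96% and 16.0% on day 14. Of the 5 chondrocyte markers, of which Comp is 1, 3 were higher with LAMZ on day 7. On day 14 4 were higher and 1, Sox9, was lower (-0.66, limma adjusted p = 0.0225). Of the 3 tendon markers none was called on day 7 and 1, Tnmd, was lower on day 14 (-1.58, adjusted p = 0.0017). Their part in these values was not tested.

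Fstl1, which encodes a follistatin-like protein of the SPARC family, was lower with LAMZ on both days, at 421 and 362 against 210 and 234 on day 7 (-0.82, adjusted p = 0.0105, and 0.0913 without LAMZ replicate 1 of day 7) and 317 and 335 against 107 and 87.4 on day 14 (-1.74, adjusted p = 0.000174). Spock1, which encodes a testican of the same family, was higher on day 14, at 0.870 and 0.769 against 3.82 and 4.98 (1.56, adjusted p = 0.000865). Both were chosen after their values were seen.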
